A study of Mus musculus with 9 samples.

Results

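Glucocorticoid activation and response in mouse liver were followed through 10 genes, taken by symbol out of the 49585 gene rows of the deposited liver table. They are Hsd11b1, Serpina6, Nr3c1, Fkbp5, Tsc22d3, Dusp1, Tat, Sgk1, Mt1 and Mt2, and each symbol matched 1 row. All 10 passed the filter on low counts in exon reads, which kept 11884 genes, and 7 of the 10 passed it in intron reads, which kept 10630 genes.

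The data are RNA-seq read counts from livers of male C57BL/6J mice, an inbred laboratory strain, with 3 libraries per group and 9 in all. In the MG group mice lived in microgravity on the space station. In the AG group mice lived there in a centrifuge at 77 rpm, which gives artificial gravity of 1 g. In the GC group mice were kept on the ground in Tsukuba, Japan, in housing set up to match the flight. Housing lasted about 35 days, each flight group had 6 animals, and flight mice were killed 2 days after splashdown, so none of the livers was taken in orbit. All mice were bought at 5 weeks of age and are labelled as 14 weeks old, and no drug or engineered allele is named for any group. Flight mice came from the Jackson Laboratory and ground mice from Charles River Laboratories in Japan, so flight, the return to Earth and the supplier cannot be told apart in any comparison with GC, whereas MG and AG share all of them. The labels do not tie a library to an animal, so the p-values cover the spread among libraries, which may be technical.

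Glucocorticoids are steroid hormones of the adrenal cortex, released with stress, fasting and the daily rhythm. Corticosteroid-binding globulin carries them in blood, an enzyme of the endoplasmic reticulum regenerates the active hormone inside hepatocytes, and the hormone then binds a receptor that moves to the nucleus and acts on target genes. In liver these targets include enzymes of amino acid breakdown and glucose production, feedback inhibitors of the receptor and of inflammation, and metal-binding proteins.

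Between 6194521 and 8957331 counts were available per library. CPM here means reads scaled by library totals that were first adjusted with TMM factors. Hepatocyte markers, of which 7 of 8 are in the table, summed to 98570–111800 CPM in MG, 93790–117000 CPM in AG and 87190–99350 CPM in GC. Skeletal muscle markers, with 10 of 10 in the table, summed to 404 CPM in MG 2, 80.2 CPM in AG 1, 14.1 CPM in AG 3, 198 CPM in GC 1 and 573 CPM in GC 2, and to under 1 CPM in the other 4 libraries. Macrophage markers, with 12 of 12 in the table, summed to 1446 CPM in AG 1 and to 293–395 CPM in the others. Some marker sums separated the groups, in places by a narrow gap or at low counts. Macrophage sums were 293–347 CPM in MG and 348.5–390 CPM in GC, and bile duct sums, with 7 of 7 markers in the table, were 28.8–29.6 CPM in MG, 41.5–64.3 CPM in AG and 38.2–51.2 CPM in GC. Exocrine pancreas sums, with 7 of 7 in the table, were 3.53–5.94 CPM in MG, 6.40–9.33 CPM in AG and 10.2–11 CPM in GC. Lymphocyte sums, with 8 of 8, were 1.13–2.90 CPM in MG, 1.23–8.54 CPM in AG and 3.00–3.17 CPM in GC. The filter on low counts kept 2 of the 7 exocrine pancreas markers and 0 of the 8 lymphocyte markers. Red cell sums, with 6 of 6, were 242–290 CPM in MG, 391–647 CPM in AG and 279–546 CPM in GC. Of 5 red cell markers tested, 5 had a negative log2 difference from GC in MG (median -0.55). In AG 4 were positive and 1 negative (median 0.51), and in flight 2 were positive and 3 negative (median -0.013). Only Alas2, the haem synthesis enzyme of red cell precursors, was called among them. It fell by 0.92 ± 0.14 on the log2 scale in MG against GC (adjusted p = 0.0141) and by 0.595 ± 0.12 in flight against GC (adjusted p = 0.0468). The part of these cells in the results was not tested. Of 6 adrenal cortex markers, Cyp11b1, Cyp11b2 and Mc2r had no count in any library.

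Hsd11b1, the enzyme that regenerates active glucocorticoid from its inactive keto form, was the only one of the 10 genes called in MG against GC. It lies on chromosome 1 at chr1:193221634-193264075, minus strand (GRCm38). Its level was 337, 372 and 391 CPM in the MG libraries, 320, 332 and 353 CPM in the AG libraries, and 225, 229 and 222 CPM in the GC libraries. Every flight library was above every ground library, while MG and AG overlapped. Hsd11b1 rose 1.63-fold in MG against GC, a log2 fold change of 0.70 ± 0.091 (SE), at an adjusted p of 0.0066 by edgeR's quasi-likelihood test. Of the 11884 genes tested in that comparison, 1.39% were called in either direction and 0.547% were called higher. Without GC 2 the adjusted p was 0.0508, and the log2 fold change was 0.65 or above when any 1 library was left out.

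The AG difference of Hsd11b1 from GC was 0.57 ± 0.091 on the log2 scale, with an adjusted p of 0.112. None of the 10 genes was called in AG against GC, where 0% of all genes were called. By unadjusted p below 0.05 that comparison had 1199 genes, 4 of them among the 10, and DESeq2 called 118 genes. Hsd11b1 was among those, with a DESeq2 adjusted p of 5.1e-06. In the authors' deposited table Hsd11b1 was 1.64-fold higher in MG than in GC, with a false discovery rate of 9.4e-05. In the authors' deposited table it was 1.48-fold higher in AG than in GC, with a false discovery rate of 0.0353. MG and AG differed by 0.13 ± 0.091 (adjusted p = 0.68).

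With both flight groups averaged against GC, Hsd11b1 rose by 0.64 ± 0.081 on the log2 scale (adjusted p = 0.0107), and Serpina6 was the other of the 10 genes called. In that comparison 1% of all genes were called, 0.353% of them higher. The Hsd11b1 call was lost without GC 1, GC 2 or GC 3, with adjusted p-values of 0.0654, 0.0638 and 0.068. It was also lost when GC 1, GC 2 and MG 2, which carried most of the muscle transcripts, were left out together, with a log2 difference of 0.65 and an adjusted p of 0.861. In MG against GC the same exclusion left a log2 difference of 0.71 and an adjusted p of 0.751, with a single GC library assumed to vary like the other groups. In bulk liver, more cells of a type and more RNA per cell cannot be told apart.

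Reads of Hsd11b1 were not all assignable to 1 place. Across the libraries 66.1% of its exon reads were unique, against 97.8% for Mt2 and 100% for the other 8 genes. The gene lies inside the annotated span of Lamb3 on the opposite strand. It also overlaps an annotated antisense transcript and Gm38118, annotated on its own strand. Use of strand in counting is not given in the sources used here. Lamb3 itself had 24, 39 and 43 reads in MG, 15, 38 and 34 in AG, and 39, 18 and 26 in GC, far below the counts of Hsd11b1. These counts leave out multiply mapped exon reads other than junction reads, so they cannot show how many shared reads came from Lamb3. With all exon reads, multiply mapped ones included, the MG difference of Hsd11b1 was 0.61 with an adjusted p of 0.0222. No unique intron reads were assigned to it in any library, so its intron signal was not analysed here.

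The 3 genes below lay closest to Hsd11b1 in profile over the 9 libraries, by the root mean square difference of log2 CPM centred on each gene's mean, among 9195 genes. These are Cyp3a25, a liver cytochrome P450, at 0.07, U2af1l4_1 at 0.11 and Kng2, a kininogen, at 0.12, against 0.31 for the deviation of Hsd11b1 from its own mean. Cyp3a25 had 623, 586 and 659 CPM in MG, 520, 546 and 633 CPM in AG, and 368, 372 and 377 CPM in GC, so that its flight and ground libraries also did not overlap.

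Serpina6, which encodes the corticosteroid-binding globulin that hepatocytes secrete into blood, was higher in flight, with its largest values in AG. It lies at chr12:103646630-103657212, minus strand. It had 291, 296 and 287 CPM in MG, 411, 289.9 and 386 CPM in AG, and 196, 212 and 219 CPM in GC. All flight libraries exceeded all ground libraries. AG 2 sat with the MG libraries, and the other AG libraries were above them. Serpina6 rose 1.55-fold in flight against GC (log2 0.64 ± 0.11, adjusted p = 0.0296). This call was lost in 6 of 9 fits that left out 1 library, namely any MG or any GC library, with adjusted p-values up to 0.148. Without GC 1, GC 2 and MG 2 the log2 difference was 0.56 and the adjusted p 0.9999.

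Taken singly, neither flight group passed edgeR's test for Serpina6, while both passed by DESeq2, at adjusted p-values of 0.0196 in MG and 8.6e-06 in AG. Its log2 difference from GC was 0.48 ± 0.13 in MG (adjusted p = 0.103) and 0.79 ± 0.13 in AG (adjusted p = 0.112). The MG value passed without AG 2, at an adjusted p of 0.0419, and the AG value passed without AG 2 or without AG 3, at 0.0238 at the lowest. It also passed in MG with only the groups compared, at 0.0175, and in AG with no filter, at 0.0109. MG was below AG by 0.32 ± 0.13 on the log2 scale, with an adjusted p of 0.452. In the authors' deposited table Serpina6 was 1.72-fold higher in AG than in GC with a false discovery rate of 0.00162, and its MG rate was 0.236. Serpina6 intron reads were few, at 36.2, 11.7 and 15.3 CPM of intron reads in MG, 30.9, 19.4 and 17.7 in AG, and 9.16, 13.2 and 15.9 in GC. AG lay above GC without overlap there, with an adjusted p of 0.644, and MG overlapped with GC.

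**Figure D1:**
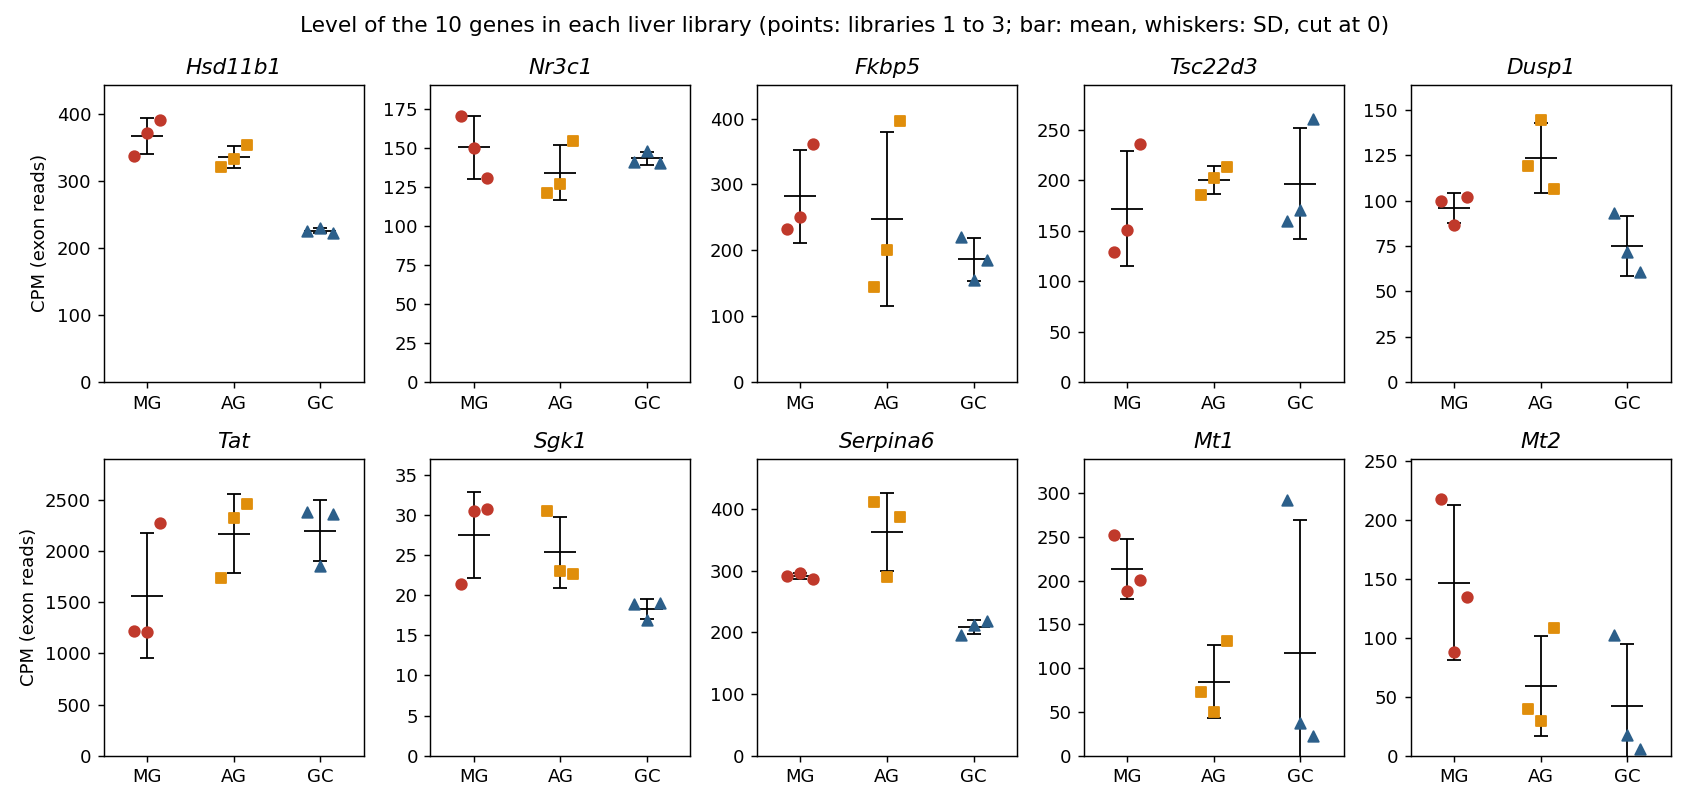
Exon read level in CPM (y axis, one scale per gene) of the 10 genes in the MG, AG and GC libraries (x axis); points are libraries, bars are means and whiskers SD (n = 3). Hsd11b1, Serpina6 and Sgk1 have all 6 flight libraries above all 3 ground libraries, and Mt1 and Mt2 spread most within GC.

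Nr3c1 encodes the glucocorticoid receptor itself, on chromosome 18 at chr18:39410545-39491301, minus strand. Its level was 170, 150.0 and 131 CPM in MG, 121, 127 and 154 CPM in AG, and 141, 148 and 141 CPM in GC. The 3 groups overlapped, and the highest library was only 1.41 times the lowest, the smallest range among the 10 genes. The log2 difference from GC was 0.07 ± 0.12 in MG and -0.10 ± 0.12 in AG. Its intron reads overlapped as well, at 189, 184 and 127 CPM of intron reads in MG, 162, 168 and 219 in AG, and 169, 164 and 204 in GC.

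Genes that work beside the receptor were counted as a list of 15, all tested. None was called in any comparison. The median log2 difference was -0.14 in MG against GC and 0.05 in AG against GC, beside 0.01 over all genes in each. Nr3c2, the mineralocorticoid receptor, also binds glucocorticoids. It had 16.6, 19.6 and 17.04 CPM in MG, 19.5, 20.6 and 15.5 CPM in AG, and 24.3, 23.2 and 21.3 CPM in GC. Each flight library was below each ground library, with adjusted p-values of 0.254 in MG and 0.495 in AG.

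Of 9 genes that metabolise or transport steroids, 6 were tested and none was called in any comparison. Srd5a1, a reductase that clears glucocorticoids among other steroids, had 19.8, 15.6 and 22.5 CPM in MG, 13.3, 23.4 and 17.3 CPM in AG, and 32.4, 32.0 and 28.4 CPM in GC. All flight values were below all ground values, with log2 differences of -0.68 ± 0.20 in MG (adjusted p = 0.135) and -0.77 ± 0.20 in AG (adjusted p = 0.247). Abcb1b, an efflux pump that exports steroids, was expressed at 2.38–3.05 CPM in MG, 1.74–3.05 CPM in AG and 3.75–4.73 CPM in GC.

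Fkbp5 encodes a co-chaperone that the receptor induces and that in turn lowers the receptor's affinity for hormone. It lies at chr17:28399095-28517524, minus strand. Its exon reads were at 233, 251 and 362 CPM in MG, 145, 200 and 396 CPM in AG, and 220, 155 and 185 CPM in GC. MG stood above GC in every library, while AG held both the lowest and the highest of all 9 libraries. The log2 differences from GC were 0.60 ± 0.32 in MG (adjusted p = 0.441) and 0.41 ± 0.32 in AG (adjusted p = 0.695), and without AG 3 the AG value was -0.11. St3gal5, a sialyltransferase of ganglioside synthesis, was closest to Fkbp5 in exon profile over the 9 libraries, at a root mean square difference of 0.10 against 0.47 for the deviation of Fkbp5 from its own mean, before Baiap2 at 0.17 and Sult1d1 at 0.18.

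Because ribosomal RNA was removed and polyadenylated RNA was not selected, unspliced transcripts are in the libraries, and intron reads give a second readout. Fkbp5 intron reads were at 155, 584 and 398 CPM of intron reads in MG, 617, 498 and 174 in AG, and 146, 134 and 107 in GC. All 6 flight libraries exceeded all 3 ground libraries, with MG 1 and AG 3 close to the ground level. The log2 differences from GC were 1.55 ± 0.47 in MG (adjusted p = 0.21), 1.74 ± 0.47 in AG (adjusted p = 0.403) and 1.64 ± 0.43 in flight (adjusted p = 0.168). None passed the test, in comparisons where 0.602%, 0% and 0.273% of all intron-tested genes were called. MG differed from AG by -0.18 ± 0.46 (adjusted p = 0.943), where 0.00941% of genes were called. Without AG 3 the AG value passed at an adjusted p of 0.0213 and the flight value at 0.0163. All 3 values passed when libraries were scaled by the factors of the exon counts, with adjusted p-values of 0.0479 in MG, 0.0465 in AG and 0.0122 in flight. That scaling moved the median of all intron-tested genes to 0.185 in MG, 0.275 in AG and 0.228 in flight, and Fkbp5 stood above that median by 1.49, 1.81 and 1.65 on the log2 scale.

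Exon and intron reads of Fkbp5 ranked the AG libraries in opposite order. AG 1 had the lowest exon level of all 9 libraries and the highest intron level, and AG 3 had the highest exon level and the lowest intron level within AG. Intron reads per exon read of Fkbp5 were 0.43, 1.22 and 0.49 in MG, 2.71, 1.5 and 0.21 in AG, and 0.35, 0.36 and 0.27 in GC. Summed over all genes, AG 1 had the highest such ratio at 0.69, and the rest spanned 0.46–0.58. AG 1 was also the library rich in macrophage markers, whose part in this result was not tested. Annotated intronic and antisense transcripts lie within Fkbp5, and their reads could be counted in its introns.

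Tat, tyrosine aminotransferase, is the liver enzyme that starts tyrosine breakdown and a classic target of the receptor. It lies at chr8:109990437-109999803, plus strand, and was the most abundant of the 10 genes in each group per kilobase of exon. Its exon reads were at 1218, 1208 and 2273 CPM in MG, 1734, 2323 and 2465 CPM in AG, and 2385, 1858 and 2366 CPM in GC. MG 1 and MG 2 were the lowest libraries and MG 3 was level with the others. Tat exon reads differed from GC by -0.49 ± 0.24 on the log2 scale in MG (adjusted p = 0.403) and -0.02 ± 0.24 in AG (adjusted p = 0.984). Tat intron reads were at 679.5, 700.3 and 839 CPM of intron reads in MG, 932, 1054 and 408 in AG, and 676, 597 and 567 in GC. In introns every MG library was above every GC library, the opposite side from the exon means, with a log2 difference of 0.27 ± 0.29 (adjusted p = 0.809). In exon profile Kcnk5 was nearest to Tat, at 0.20 against 0.39 for its own deviation, so no gene followed it as closely as St3gal5 followed Fkbp5.

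AG 3 had both the highest exon level and the lowest intron level of Tat among the 9 libraries. Intron reads per exon read of Tat were 0.36, 0.30 and 0.17 in MG, 0.34, 0.27 and 0.08 in AG, and 0.15, 0.13 and 0.11 in GC. All 3 MG libraries, AG 1 and AG 2 were above the ground range, and AG 3 was below it.

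Tsc22d3 encodes the glucocorticoid-induced leucine zipper protein, which dampens inflammatory signalling, at chrX:140539528-140600659 on the minus strand. Its exon reads were at 129, 151 and 237 CPM in MG, 186, 202 and 214 CPM in AG, and 160, 171 and 261 CPM in GC. The groups overlapped, and both MG and GC spread further than AG. Differences from GC on the log2 scale were -0.20 ± 0.23 in MG (adjusted p = 0.778) and 0.03 ± 0.23 in AG (adjusted p = 0.977). Its intron reads were at 147, 238 and 212 CPM of intron reads in MG, 394, 327 and 154 in AG, and 214, 212 and 263 in GC. AG 1 and AG 2 were the 2 highest libraries and AG 3 the second lowest, the same order within AG as for Fkbp5. Gstp3 was nearest to Tsc22d3 in exon profile, at 0.14 against 0.31 for its own deviation.

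**Figure D2:**
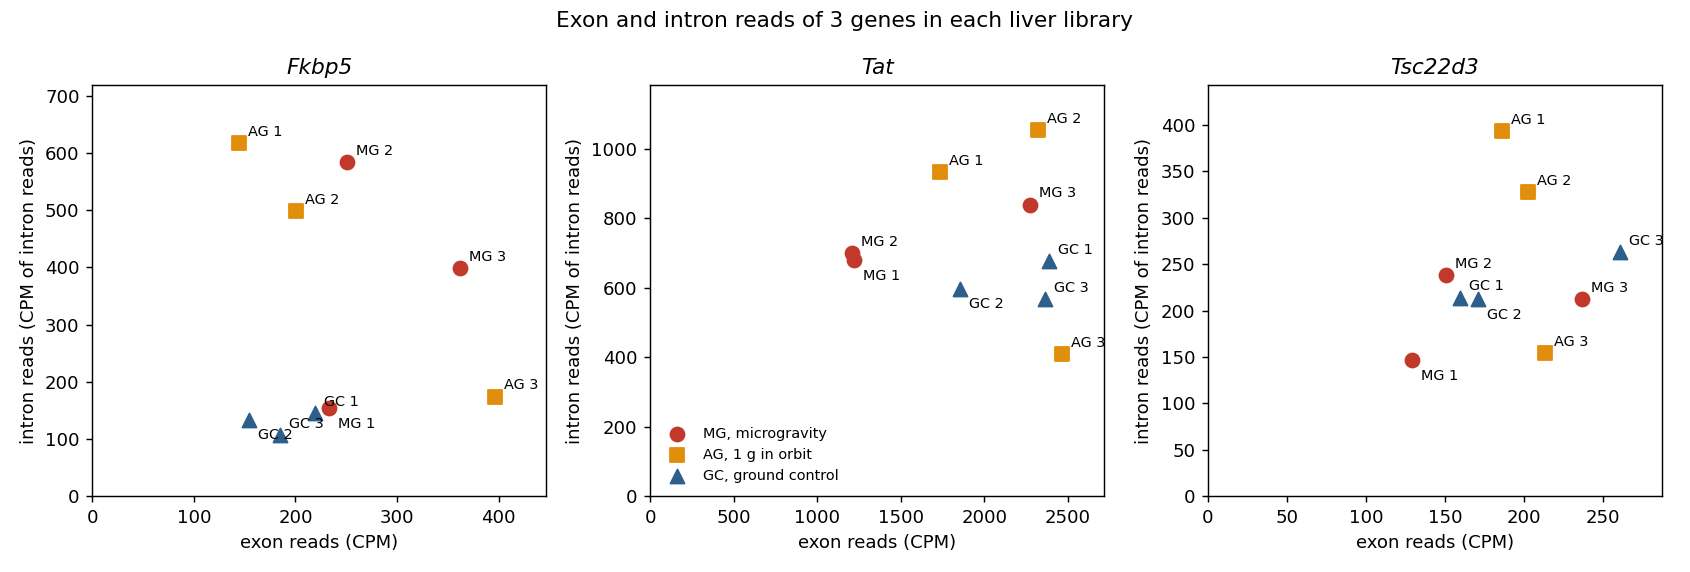
Intron reads (y axis, CPM of intron reads) against exon reads (x axis, CPM) of Fkbp5, Tat and Tsc22d3 in each library. AG 1 has the highest Fkbp5 intron level at the lowest exon level. Within AG, AG 3 has the highest exon level and the lowest intron level in all 3 genes.

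Dusp1 encodes a phosphatase that switches off MAP kinases and is induced by both glucocorticoids and stress signals. It lies at chr17:26505590-26508519, minus strand. It had 99.6, 86.4 and 102 CPM in MG, 119, 145 and 107 CPM in AG, and 93.2, 71.7 and 60.5 CPM in GC. AG was above both other groups without overlap, while MG overlapped with GC. Dusp1 differed by 0.72 ± 0.16 on the log2 scale in AG against GC (adjusted p = 0.231), 0.35 ± 0.16 in MG against GC (adjusted p = 0.376) and -0.37 ± 0.16 in MG against AG (adjusted p = 0.502). By DESeq2 the AG difference passed at an adjusted p of 0.0105. In the authors' deposited table its false discovery rate in AG was 0.122.

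Of 13 immediate early genes, which share stress and growth signals with Dusp1, 11 were tested and none was called. Egr1, a zinc finger transcription factor, had 6.78, 8.31 and 3.96 CPM in MG, 17.2, 5.60 and 5.06 CPM in AG, and 3.99, 2.68 and 3.00 CPM in GC. Atf3, a stress-induced factor, was highest in AG 1 as well, at 8.23 CPM. It had 2.86 and 2.76 CPM in AG 2 and AG 3, 1.32–2.90 CPM in MG and 1.17–1.58 CPM in GC. Zfp36, which destabilises cytokine mRNAs, had 57.1, 51.7 and 66.6 CPM in MG, 97.3, 79.7 and 84.7 CPM in AG, and 85.0, 84.8 and 74.3 CPM in GC, so that MG lay below both other groups.

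Among 16 tested relatives of the 10 genes, Aadat was called. It encodes an aminotransferase of lysine and tryptophan breakdown, and had 60.04, 52.7 and 47.7 CPM in MG, 68.0, 70.0 and 67.1 CPM in AG, and 93.0, 87.1 and 80.0 CPM in GC. No library of 1 group fell within the range of another. Aadat fell by 0.70 ± 0.10 on the log2 scale in MG against GC (adjusted p = 0.0118) and by 0.52 ± 0.088 in flight against GC (adjusted p = 0.0279). The MG call was lost without MG 2, GC 1 or GC 2, at adjusted p-values up to 0.0675, and the flight call in 5 of 9 such fits. The Aadat flight call was also lost with only the groups compared (adjusted p = 0.114). Without GC 1, GC 2 and MG 2 the Aadat log2 difference was -0.58 in MG and -0.41 in flight. Dusp4, another MAP kinase phosphatase, had 4.07–5.81 CPM in MG, 4.44–6.56 CPM in AG and 1.26–2.46 CPM in GC. Its adjusted p was 0.0792 in MG and 0.216 in AG. Dusp6, the phosphatase specific for ERK, had 66.3–73.7 CPM in MG, 53.2–105 CPM in AG and 33.2–55.8 CPM in GC.

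Sgk1 encodes a kinase of ion transport and cell survival that responds to glucocorticoids and mineralocorticoids. It lies at chr10:21882184-21999903, plus strand. It was the least abundant of the 10 genes per kilobase of exon in each group. One of its RefSeq promoter windows holds the full palindromic glucocorticoid response element, AGAACA and TGTTCT with any 3 bases between them, a motif the receptor can bind as a dimer, and is shown for that match. The window spans chr10:21993640-21993939 on the plus strand (GRCm38.p6), and the capitals mark the element, which starts 189 bases before the annotated start.
Sgk1 window: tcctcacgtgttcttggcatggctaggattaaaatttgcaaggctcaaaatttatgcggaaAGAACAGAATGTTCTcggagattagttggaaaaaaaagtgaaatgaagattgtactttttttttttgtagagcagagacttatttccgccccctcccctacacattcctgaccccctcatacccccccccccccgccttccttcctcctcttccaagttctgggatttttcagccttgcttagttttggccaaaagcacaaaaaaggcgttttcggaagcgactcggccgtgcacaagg
This element was found in 3 of 32851 RefSeq windows of 300 bases, or 0.00913%, with both strands searched. None of the other 14 windows of the 8 genes that have one held it. Its right arm TGTTCT, searched on both strands and overlapping the full element, was in 19% of all windows. A match is a description of the letters only.

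Sgk1 had 21.4, 30.5 and 30.8 CPM in MG, 30.5, 23 and 22.7 CPM in AG, and 18.9, 16.9 and 19.1 CPM in GC. All flight libraries were above all ground libraries, and the closest pair was MG 1 and GC 3. On the log2 scale Sgk1 differed from GC by 0.59 ± 0.17 in MG (adjusted p = 0.137), 0.47 ± 0.17 in AG (adjusted p = 0.43) and 0.53 ± 0.15 in flight (adjusted p = 0.159). Intron reads also did not overlap, at 9.74, 11.3 and 13.6 CPM of intron reads in MG, 12.9, 8.44 and 11.3 in AG, and 7.38, 8.28 and 6.35 in GC. These rest on 46–56 intron reads per library in MG, 35–54 in AG and 20–33 in GC. The intron log2 difference in MG was 0.64 ± 0.23 (adjusted p = 0.328), so neither readout of Sgk1 passed the test.

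**Figure D3:**
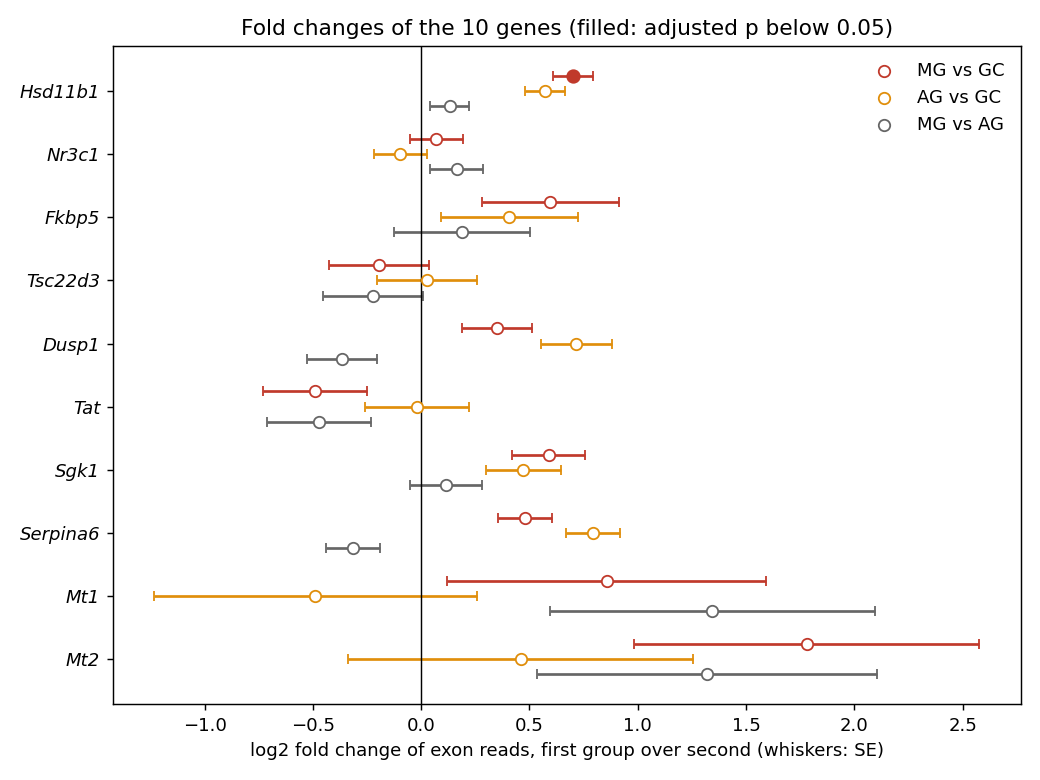
Log2 fold change of exon reads (x axis) of each of the 10 genes (y axis) for MG against GC, AG against GC and MG against AG; whiskers are SE, and a filled point marks an adjusted p below 0.05. The only filled point is Hsd11b1 in MG against GC, at 0.70, and Mt1 and Mt2 have the widest whiskers.

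Counted by libraries that do not overlap, 4 of the 10 genes were higher in MG than in GC, namely Hsd11b1, Serpina6, Sgk1 and Fkbp5, and none was lower. Of all tested genes 11.9% were higher and 11.3% lower without overlap in that comparison. In AG against GC the count was again 4, namely Hsd11b1, Serpina6, Sgk1 and Dusp1, where 7.21% of all genes were higher and 7.17% lower. Both comparisons use the same GC libraries. In MG against AG, where 0% of genes were called, Mt1 was higher and Dusp1 lower without overlap, beside 6.4% and 5.96% of all genes. By unadjusted p below 0.05 that comparison had 1165 genes, 2 of them among the 10, and DESeq2 called 97 genes. In flight against GC the count was 3, namely Hsd11b1, Serpina6 and Sgk1, beside 3.44% of all genes higher and 3.55% lower. Among the 7 genes tested in intron reads, the libraries lay higher without overlap for Fkbp5, Sgk1 and Tat in MG against GC, for Fkbp5, Serpina6 and Sgk1 in AG against GC, and for Fkbp5 and Sgk1 in flight against GC. The shares of all intron-tested genes that did so were 8.33%, 5.48% and 1.89%. In exon reads the median log2 difference of the 10 genes was 0.53 in MG and 0.43 in AG, beside 0.01 over all genes in each.

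Mt1 and Mt2 encode metallothioneins, small cysteine-rich proteins that bind zinc and copper and are induced by metals, glucocorticoids and inflammation. They are neighbours on chromosome 8, Mt2 at chr8:94172664-94173568 and Mt1 at chr8:94179082-94180327, both on the plus strand, and Mt2 overlaps an annotated antisense transcript. Their promoter windows are shown because both genes varied together across libraries. The capitals mark the core of the metal response element, searched as TGCACNC and TGCGCNC on both strands. The windows span chr8:94172368-94172667 for Mt2 and chr8:94178839-94179138 for Mt1 (RefSeq, GRCm38.p6).
Mt2 window: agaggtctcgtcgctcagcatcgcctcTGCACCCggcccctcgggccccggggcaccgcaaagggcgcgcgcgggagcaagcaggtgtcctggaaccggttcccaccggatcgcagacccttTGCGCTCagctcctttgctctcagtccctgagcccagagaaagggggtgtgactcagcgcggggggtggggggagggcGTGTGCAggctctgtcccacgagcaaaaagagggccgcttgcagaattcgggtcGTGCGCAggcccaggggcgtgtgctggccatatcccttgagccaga
Mt1 window: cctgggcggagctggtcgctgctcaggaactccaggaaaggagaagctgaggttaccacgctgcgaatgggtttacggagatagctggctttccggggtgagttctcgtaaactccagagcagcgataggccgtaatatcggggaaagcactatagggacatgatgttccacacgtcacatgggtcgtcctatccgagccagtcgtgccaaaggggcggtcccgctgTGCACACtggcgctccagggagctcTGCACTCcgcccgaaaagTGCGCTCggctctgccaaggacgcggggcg
The Mt2 window held 4 cores and the Mt1 window 3. At least 1 core was in 25.7% of all 32851 windows, at least 3 in 1.97% and at least 4 in 0.517%. Neither window held the full glucocorticoid response element or its right arm.

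Mt1 had 253, 188 and 200.3 CPM in MG, 72.3, 49.98 and 131 CPM in AG, and 292, 37.0 and 22.2 CPM in GC. MG lay above AG without overlap, and GC held the highest library together with the 2 lowest. The log2 difference was 0.86 ± 0.74 in MG against GC (adjusted p = 0.673), -0.49 ± 0.75 in AG against GC (adjusted p = 0.864) and 1.34 ± 0.75 in MG against AG (adjusted p = 0.582). Library GC 1 decided the first of these. Without it Mt1 was higher in MG by 2.85 on the log2 scale at an adjusted p of 0.0273, and the AG difference was 1.504 (adjusted p = 0.401).

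Mt2 had 218, 88.0 and 134 CPM in MG, 39.3, 29.7 and 108 CPM in AG, and 102, 17.8 and 5.70 CPM in GC. GC 1 again stood with the flight libraries, and GC 3 was the lowest. Log2 differences of Mt2 were 1.78 ± 0.80 in MG against GC (adjusted p = 0.355), 0.46 ± 0.80 in AG against GC (adjusted p = 0.883) and 1.32 ± 0.79 in MG against AG (adjusted p = 0.614). Without GC 1 the MG difference was 3.64, with an adjusted p of 0.07 or above in every fit that left out 1 library.

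The metallothioneins were by far the most variable of the 10 genes. The highest library was 13.2 times the lowest for Mt1 and 38.1 times for Mt2, against 1.41 to 2.74 times for the other 8. Mt2 was the closest of 9195 genes to Mt1 in profile, at a root mean square difference of 0.52, followed by Agpat9 at 0.79 and Lcn2 at 0.81. Mt1 reads per Mt2 read were 1.16, 2.14 and 1.49 in MG, 1.84, 1.68 and 1.21 in AG, and 2.86, 2.08 and 3.90 in GC. Muscle markers summed to 198, 573 and 0.30 CPM in GC 1, GC 2 and GC 3, where Mt1 and Mt2 together had 394, 54.8 and 27.9 CPM. In MG 1, MG 2 and MG 3 the muscle sums were 0.90, 404 and 0.92 CPM, beside 470, 276 and 335 CPM of metallothionein. In AG 1, AG 2 and AG 3 they were 80.2, 0.50 and 14.1 CPM, beside 112, 79.7 and 239 CPM. The part of muscle in the metallothionein level was not tested.

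**Figure D4:**
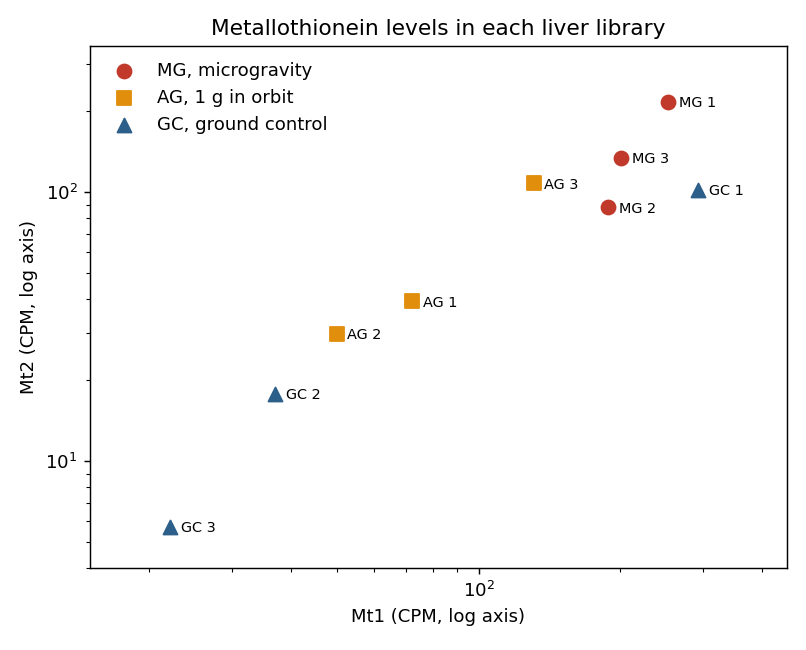
Mt2 (y axis, CPM) against Mt1 (x axis, CPM) in each library, on log axes. The points run along a diagonal, with GC 3 lowest at 22.2 CPM of Mt1 and 5.70 CPM of Mt2, and with GC 1 among the MG libraries.

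Of 12 other genes of metal handling, 10 were tested and none was called. Slc39a8, a zinc and manganese importer, had 31.9, 30.5 and 32.8 CPM in MG, 30.3, 27.0 and 29.0 CPM in AG, and 24.98, 25.4 and 21.6 CPM in GC. All its flight values were above its ground values. Hmox1, which breaks down haem and is abundant in macrophages, stood at 149 CPM in AG 1 and at 15.01–22.4 CPM in the other 8 libraries. Ccs, the copper chaperone of superoxide dismutase, had 106–115 CPM in MG, 103–123.2 CPM in AG and 119–132 CPM in GC.

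Metallothioneins also rise with inflammation, together with acute phase genes on which glucocorticoids act jointly with cytokines. Of 15 such genes 13 were tested. In MG against GC Hp and Lbp rose and Orm1 fell, and in flight against GC Orm1 and Saa1 fell. Hp, which encodes the haemoglobin scavenger haptoglobin, had 3730, 4468 and 4967 CPM in MG, 3070, 2536 and 2831 CPM in AG, and 2942, 2502 and 2521 CPM in GC. Only MG stood apart, and Hp was 1.65-fold higher in MG than in GC (adjusted p = 0.0264). Lbp, the lipopolysaccharide-binding protein, had 138, 119 and 134 CPM in MG, 92.4, 70.8 and 93.2 CPM in AG, and 86.3, 69.3 and 58.1 CPM in GC. It rose 1.83-fold in MG against GC (adjusted p = 0.023).

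Orm1, an acid glycoprotein that glucocorticoids and interleukins induce, went the other way. It had 337, 342 and 252 CPM in MG, 339, 364 and 411 CPM in AG, and 568, 578 and 489 CPM in GC. All flight libraries were below all ground libraries. Orm1 fell by 0.81 ± 0.14 on the log2 scale in MG against GC (adjusted p = 0.02) and by 0.68 ± 0.11 in flight against GC (adjusted p = 0.0265). Saa1, serum amyloid A, had 40.1, 19.5 and 18.4 CPM in MG, 29.7, 14.1 and 20.2 CPM in AG, and 231, 106 and 32.9 CPM in GC. MG 1 overlapped with GC 3. Saa1 fell by 2.40 ± 0.47 in flight against GC (adjusted p = 0.043), and this call was lost in 7 of 9 fits that left out 1 library. Without GC 1 the log2 difference was -1.57, and without GC 1, GC 2 and MG 2 it was -0.40. The Saa1 call was also lost by limma-voom (adjusted p = 0.111), by edgeR's robust fit (0.175) and with only the groups compared (0.0625). Leaving out 1 library lost the Hp and Lbp calls in 5 of 9 fits each, and the Orm1 calls in 4 in MG and 3 in flight. The Orm1 flight call was also lost with only the groups compared (adjusted p = 0.0623). Without GC 1, GC 2 and MG 2 the Orm1 log2 difference was -0.74 in MG and -0.57 in flight.

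Beyond the 10 genes, 25 other liver targets of the receptor were all tested in exon reads. None was called in MG or AG against GC, and 1 rose in flight against GC. The median log2 difference was 0.24 in MG and 0.42 in AG, beside 0.01 over all genes. Foxo1, a transcription factor of glucose production and fasting, had 70.0, 67.0 and 83.7 CPM in MG, 85.4, 84.8 and 93.2 CPM in AG, and 58.8, 58.6 and 56.4 CPM in GC. All its flight libraries were above all ground libraries. It rose by 0.47 ± 0.09 in flight against GC (adjusted p = 0.0395), a call that held in only 2 of 9 fits that left out 1 library. The Foxo1 call was also lost with only the groups compared (adjusted p = 0.102). Without GC 1, GC 2 and MG 2 the Foxo1 log2 difference was 0.53. Zbtb16, a zinc finger protein with a strong receptor response in many cells, had 80.7, 66.6 and 102 CPM in MG, 127, 157 and 124 CPM in AG, and 105, 52.0 and 73.4 CPM in GC.

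Intron reads of these other targets gave more calls than exon reads. Of 24 tested, 3 rose in MG against GC, namely Igfbp1, Irs2 and Klf9, in a comparison where 0.292% of all genes were called higher. None was called in AG against GC, where 831 of all intron-tested genes had an unadjusted p below 0.05, 9 of them in this list. Igfbp1, an insulin-like growth factor binding protein that fasting and glucocorticoids raise, had 136, 180 and 141 CPM of intron reads in MG, 58.0, 79.7 and 32.8 in AG, and 26.6, 36.5 and 13.01 in GC. MG lay above both other groups, and AG overlapped with GC. Its intron reads rose 6.03-fold in MG against GC (log2 2.59 ± 0.35, adjusted p = 0.00977), and the call held in all 9 fits that left out 1 library. Its exon reads were at 38.6, 68.4 and 83.5 CPM in MG, 36.1, 31.1 and 15.2 CPM in AG, and 20.2, 28.5 and 5.85 CPM in GC, with an adjusted p of 0.103 in MG.

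Irs2, an insulin receptor substrate, had 31.8, 30.4 and 25.7 CPM of intron reads in MG, 12.2, 19.8 and 18.7 in AG, and 6.93, 13.2 and 7.30 in GC. MG was above both other groups, and the 1.73 ± 0.26 log2 rise against GC had an adjusted p of 0.0145. Klf9, a receptor-induced transcription factor, had 113–134 CPM of intron reads in MG, 119, 98.0 and 99.4 in AG, and 67.3, 69.6 and 81.5 in GC. Both flight groups were above GC, and Klf9 intron reads rose by 0.76 ± 0.14 in MG (adjusted p = 0.0364). The Irs2 call was lost without MG 2, GC 1 or GC 3, and the Klf9 call in 6 of 9 such fits. The Klf9 call was also lost with the replicate number as a block (adjusted p = 0.062) and with library factors of the exon counts (adjusted p = 0.0959). Igfbp1 and Irs2 were also called in flight against GC, at adjusted p-values of 0.036 and 0.0424, calls lost in 7 and 6 of the 9 fits.

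Got1, the cytosolic aspartate aminotransferase and one of the relatives of the 10 genes, had 228, 153 and 131 CPM of intron reads in MG, 63.9, 143 and 69.5 in AG, and 41.1, 48.6 and 40.9 in GC. Its intron reads rose by 1.98 ± 0.30 in MG against GC (adjusted p = 0.0165), a call lost without MG 2, GC 1, GC 2 or GC 3, at adjusted p-values up to 0.113. It was also called in flight against GC (log2 1.53, adjusted p = 0.0432), a call lost in 5 of 9 such fits. Its exon reads overlapped fully, at 325, 160 and 274 CPM in MG, 182, 299 and 301 CPM in AG, and 366, 199.9 and 208 CPM in GC.

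**Figure D5:**
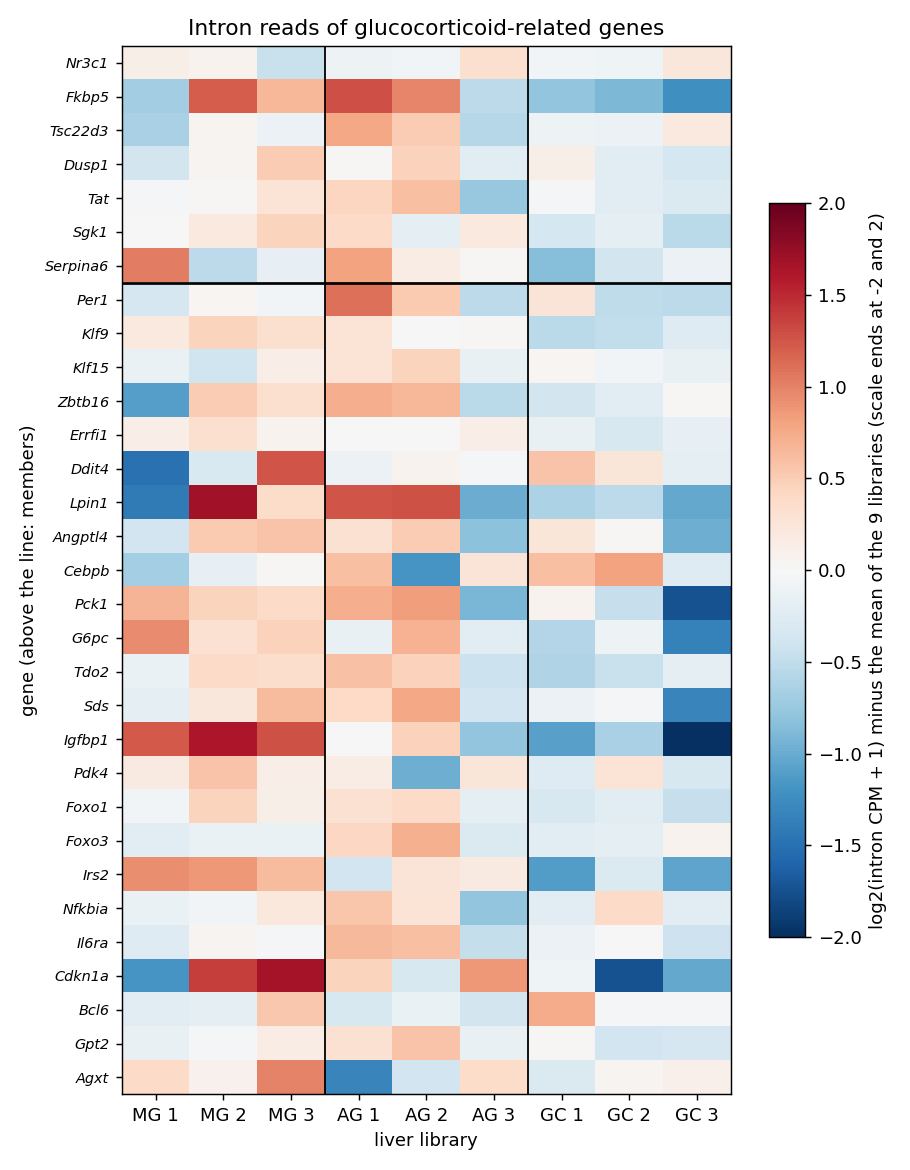
Intron level of 7 of the 10 genes (above the line) and 24 other receptor targets (below it) in each library (x axis); colour is log2(intron CPM + 1) minus the gene's mean over the 9 libraries. AG 2 has the highest median of the other targets, at 0.46, and GC 3 the lowest, at -0.32, with AG 3 on the side of the ground libraries at -0.26.

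Across the whole set of intron levels, the libraries of a flight group were not alike. The median deviation of the 24 other targets from their own means was -0.15, 0.31 and 0.34 in MG 1, MG 2 and MG 3, then 0.31, 0.46 and -0.26 in AG 1, AG 2 and AG 3, and -0.19, -0.20 and -0.32 in GC 1, GC 2 and GC 3. By this median MG 1 and AG 3 were on the side of the ground libraries, as they were for Fkbp5. These levels depend on the scaling, with intron TMM factors of 1.18 in MG 1, 0.85 in AG 3 and 0.81 in GC 2. The exon TMM factors of these libraries were 0.99, 0.96 and 1.03. The medians were not taken again with library factors of the exon counts. The side on which MG 1 fell is thus given for the intron scaling only. Single targets in MG 1 lay on both sides, with deviations of 1.22 for Igfbp1 and 0.93 for Irs2, but -1.495 for Ddit4 and -1.42 for Lpin1. The 7 members followed with medians of -0.03, 0.06 and 0.28 in MG, 0.43, 0.46 and -0.23 in AG, and -0.10, -0.21 and -0.29 in GC. No label separates these libraries from the others of their group.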

How the data were processed

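The authors deposited 1 gene table with whole-number read counts per library in exons, exon junctions and introns. The counts tested were its expression values, which equal unique exon reads plus multiply mapped junction reads in 100% of values. Builds GRCm38 and mm10 are named per the submitters' processing notes. For aligner, counter and use of strand the answer is not given in the sources used here. The table has 139 per-library columns that were not used. The authors' signed fold change, a score that is negative where a group is lower, and their p-values and false discovery rates come from an EDGE test with tagwise dispersions, per the file headers, and are quoted as deposited. Start coordinates in the table are counted from 0 and are given here from 1.

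Genes were kept by filterByExpr, scaled by TMM and fitted with edgeR 4.0.16 (R 4.3.3), 1 mean per group over 9 libraries, by the quasi-likelihood test with Benjamini-Hochberg adjustment over all tested genes and calls below 0.05. Unique intron reads had their own fit of the same design. Flight is the mean of MG and AG. The biological coefficient of variation was 16.7%. CPM use TMM-scaled totals. DESeq2 1.42.0 and limma 3.58.1 served as alternatives. The fits were tested on simulated data. Same-numbered libraries share only a number.

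The 10 genes, 7 pathway lists and 12 marker lists were chosen with earlier results of these data known. Named genes are the 10, genes of the other lists called in exon or intron reads, the 2 smallest p-values of each list in MG and AG against GC, and the 3 nearest profiles of 5 genes with a mean of at least 5 CPM. One gene that this rule names is not reported here. Promoters come from RefSeq (GRCm38.p6), which had windows for 8 of the 10.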

Additional observations from a re-analysis of the deposited data

How the results depend on the processing

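The count of called genes moved with the setting, and depth was not varied. In MG against GC 165 genes were called, against 278 with no filter, 390 by DESeq2, 375 with only the groups compared, 0 without GC 1, GC 2 and MG 2, and 21 to 290 when 1 library was left out. In AG against GC 0 were called, against 44 with no filter, 118 by DESeq2, 4 with only the groups compared and 0 to 60 without 1 library. In MG against AG 0 were called, against 38 with no filter, 97 by DESeq2, 2 by limma-voom, 8 by edgeR's robust fit, 1 with only the groups compared and 0 to 130 without 1 library. In flight against GC 119 were called, against 215 with no filter, 322 by DESeq2 and 13 with only the groups compared. Without 1 library the flight count was 0 to 229. The fit without GC 1, GC 2 and MG 2 leaves GC with 1 library, which is assumed to vary like the other groups. For intron reads the counts in MG against GC, AG against GC, MG against AG and flight against GC were 64, 0, 1 and 29. With library factors of the exon counts they were 115, 12, 19 and 92, and the split in MG against GC was 77 higher and 38 lower instead of 31 and 33, and in flight 61 and 31 instead of 11 and 18. Without 1 library they were 9 to 166, 0 to 179, 0 to 173 and 1 to 205. Total intron reads, chosen after seeing the data, gave 2 in MG against AG and 18 in flight.

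The replicate number as a block gave 158, 0, 1 and 130 exon calls and 83, 0, 0 and 43 intron calls. For the pairing check, each library was taken as its deviations from its group mean in log2 CPM. These deviations correlated between -0.283 and 0.48 for same-numbered libraries of different groups. For 2 of 9 libraries they correlated best with their own number in both other groups, so the block pairs no samples. Mt1 in AG against GC changed sign under the block, at 0.066, by limma-voom, at 0.27, and without GC 1, GC 2 and MG 2, at 1.92. Tsc22d3 in AG against GC was -0.39 without those 3. The other changes of sign came from leaving out 1 library. In MG against GC the log2 values ranged between -0.03 and 0.16 for Nr3c1 and between -0.49 and 0.052 for Tsc22d3. In AG against GC they ranged between -0.11 and 0.67 for Fkbp5, -0.11 and 0.28 for Tsc22d3, -0.13 and 0.12 for Tat, -0.98 and 1.504 for Mt1, and -0.32 and 2.32 for Mt2. In MG against AG they ranged between -0.079 and 0.70 for Fkbp5 exon reads and -0.64 and 0.19 for its intron reads. None of these values was called, and the cause was not tested.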
